A study of Arabidopsis thaliana with 17 samples.

Results

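The probe sets described here read transcripts of the plastid and mitochondrial genomes of Arabidopsis thaliana. They were chosen by their number on the array: both deposited tables hold a run of 126 probe sets with consecutive numbers that the array's design sets aside for organelle genes, and 5 of them were left out because the platform annotation gives them to nuclear genes on chromosome 2. The remaining 121 members stand among 22746 probe sets that are not controls. The annotation placed 73 of them in the plastid genome, with 72 distinct gene symbols against 78 protein-coding plastid genes in RefSeq (assembly TAIR10.1), and 13 in the mitochondrial genome. The other 35 are not listed in the platform table and stay without a gene name. Of the plastid probe sets, 8 read genes that lie in the plastid genome in more than one copy, and 1 mitochondrial probe set reads the neighbours rpl16 and rps3. The rule uses no expression values, but it was chosen with earlier results of these data known.

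Plastids and mitochondria keep small genomes inherited from bacterial ancestors. The plastid genome encodes core subunits of the photosystems, the cytochrome b6f complex, the ATP synthase, the NDH complex and Rubisco, together with parts of the ribosome and RNA polymerase that serve them. The mitochondrial genome encodes core subunits of the respiratory chain and proteins that mature cytochrome c. The other subunits of these complexes are made from nuclear genes and imported. Plastid genes lie in clusters that are transcribed together and processed afterwards.

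The study measured RNA of 3-week-old, soil-grown plants on 17 ATH1 arrays, with the tissue labelled as seedling. Plants received water or salicylic acid (SA), an immune hormone of plants, at 0.5 mM for 16 hours. The question was how BRCA2A, a protein of homologous recombination, and SSN2, named as a suppressor of sni1, bear on defence genes. All plants carried the npr1 and sni1 mutations, including the controls. No wild-type plants are among the samples used here. Plants with these mutations alone (npr1 sni1) are called the double. The brca2a triple also carried brca2a, and the ssn2 triple also carried ssn2. The double in water, the double after SA, the brca2a triple in water and the brca2a triple after SA had 3 arrays each. The ssn2 triple had 3 arrays in water and 2 after SA. Replicates came from independent experiments, per the labels. For the ssn2 arrays, titles and genotype entries were followed, although their treatment text gives brca2a.

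Intensities are linear and appear to have been normalized separately within 2 tables, 1 of 12 arrays (double and brca2a triple) and 1 of 5 (ssn2 triple). Levels are therefore never compared across them. Differences are log2 fold changes of intensity + 16, with standard errors, from limma. Adjusted p-values are limma's, with Benjamini-Hochberg adjustment over all 22746 probe sets, and the threshold was 0.05. The labelling kit named in the labels is of a kind that starts from poly(A) tails. In plant organelles such tails mark RNA for decay, so an organelle probe set may not read its transcript in proportion to its abundance. That was not tested. In these whole-plant samples, fewer organelles or cells and less RNA per organelle cannot be told apart.

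Water replicate 2 of the double stood apart from its group. Its correlations across probe sets with replicates 1 and 3 were 0.981 and 0.980, against 0.997 between those. Without it, limma called 19.6% of all probe sets for SA in the double, against 7.47% with all arrays. The shares were 15.4% against 4.65% for SA in the brca2a triple, and 8.92% against 4.26% between these lines after SA. In each of these 3 comparisons, 1 of the 121 members was then called. The green tissue was well represented: RCA, which activates Rubisco, lay between 10008 and 14773 on all 17 arrays. The only listed flower, pollen or seed marker that could be matched to a probe set, AT5G45880, lay between 14.8 and 19.6. Of the root markers, EXPA7 lay between 18.5 and 33 and PYK10 between 457 and 961.

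Plastid members covered a wide range of signal and mitochondrial members a low one. On the 12 arrays, mean intensities of the 73 plastid members ran from 6.92 to 9855 with a median of 452, and 21 of them lay below 61.5, the median of all probe sets. Those of the 13 mitochondrial members ran from 9.19 to 214 with a median of 27.1, and 11 lay below that median. The 35 unannotated members had a median of 11.3, and 32 lay below it. On the 5 ssn2 arrays the corresponding medians were 328, 21.3 and 10.6. The spread between replicates was wider for plastid members: the median standard deviation within groups on the log2 scale was 0.173 on the 12 arrays, against 0.0974 for all probe sets, 0.103 for mitochondrial and 0.065 for unannotated members. On the 5 arrays it was 0.155 for plastid members and 0.0768 for all probe sets.

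On some single arrays most plastid members deviated in the same direction. How much of the spread within groups this made up was not measured. Each member's value on an array was set against its mean over the arrays of its table, so deviations also hold differences between groups. In SA replicate 2 of the double, 63 of 73 plastid members lay above their mean, with a median deviation of 0.173 on the log2 scale. In SA replicate 3 of the brca2a triple, 71 of 73 lay below it, with a median of -0.234. In SA replicate 2 of the brca2a triple, 55 lay above it, with a median of 0.0922, so replicates of 1 group stood on opposite sides. Among the ssn2 arrays, water replicate 3 had 64 of 73 above the mean, with a median of 0.259, while water replicate 1 had 54 below it, with a median of -0.0788. Water replicate 2 of the double had a median of -0.0737, inside the range of the other arrays. Array medians of mitochondrial members lay between -0.0978 and 0.105, on a scale where the added 16 makes changes of dim members smaller.

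**Figure D1:**
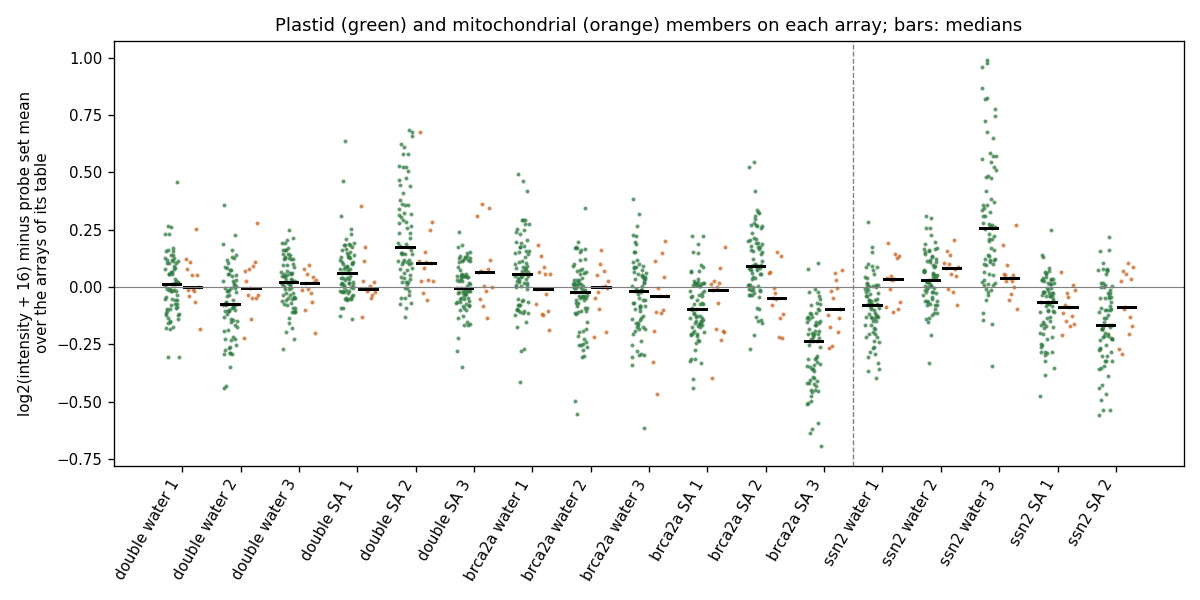
Each point is 1 plastid (green, 73) or mitochondrial (orange, 13) member on 1 of the 17 arrays. The vertical axis gives log2(intensity + 16) minus the member's mean over the arrays of its table, bars are medians, and the dashed line parts the 2 tables. SA replicate 2 of the double (median 0.173) and water replicate 3 of the ssn2 triple (0.259) stand high for plastid members, and SA replicate 3 of the brca2a triple (-0.234) stands low.

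The members that varied most over the 12 arrays showed this pattern. ycf3, which is needed to assemble photosystem I, had a standard deviation of 0.43 on the log2 scale. Its intensity was 192, 156 and 237 in the double in water, 303, 341 and 228 in the double after SA, 310.1, 142 and 242 in the brca2a triple in water, and 159.6, 257 and 133 in the brca2a triple after SA. All 4 groups overlapped at least 1 other. For cemA, a protein of the plastid inner envelope, the standard deviation was 0.375. Its values were 252, 261 and 293 in the double in water, 447, 356 and 322 after SA, 207, 244 and 229 in the brca2a triple in water, and 285, 418 and 178 after SA. The 3 SA arrays of the double lay above its water arrays, while those of the brca2a triple spanned its water arrays on both sides. The next were rpoC1 (0.333), 1 of the probe sets for rps12 (0.332) and rps7 (0.296).

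Whether SA changed organelle transcripts was first asked in the double. limma called 0 of 121 members at the adjusted threshold, where 7.47% of all probe sets were called. At an unadjusted p under 0.05 there were 6 members, all higher after SA, where 9.13% of all probe sets were. The alternatives that kept all arrays called none either. All SA arrays lay above all water arrays for 14 members (11.6%) and below them for 2 (1.65%), where the shares of all probe sets were 10.4% and 11.1%. The median log2 fold change was 0.0953 for plastid members, with 51 of 73 above 0, and 0.0646 for mitochondrial members, with 11 of 13 above 0. Over all probe sets it was -0.0136. Without SA replicate 2, which stood high, the plastid median was 0.0245. The median standard error of a plastid member was 0.128, so most single members had intervals that reached past 0.

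Among photosynthetic members in the double, psbB, which encodes the photosystem II core antenna CP47, read 41.1, 42 and 42.7 in water and 55, 44.5 and 50.7 after SA. The groups did not overlap, and the log2 fold change was 0.19 ± 0.07 with an adjusted p of 0.183. petA, the gene of cytochrome f, read 1180.2, 1088 and 1375 in water and 1489.5, 2009 and 1417 after SA. Its SA arrays again lay above all water arrays, with 0.42 ± 0.18 and an adjusted p of 0.227. ndhH, a subunit of the NDH complex of cyclic electron flow, read 16.8, 21 and 17.5 in water and 22.5, 21.8 and 22.6 after SA, or 0.16 ± 0.05 with an adjusted p of 0.132. It passed the threshold, at 0.0161, only in the fit without water replicate 2 of the double. psbC, the gene of the photosystem II antenna protein CP43, passed, at 0.0298, only in the fit without SA replicate 3 of the brca2a triple, with 0.28.

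The lowest p of the mitochondrial members in the double belonged to nad9, a subunit of respiratory complex I. It read 51.9, 37.5 and 45.8 in water and 63.7, 51.4 and 61.3 after SA, with overlap of 1 array on each side. Its log2 fold change was 0.30 ± 0.10 with an adjusted p of 0.123. cox2, a core subunit of complex IV, had 0.07 ± 0.05 (adjusted p = 0.578), and nad4L, another complex I subunit, had 0.13 ± 0.11 (adjusted p = 0.636).

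In the brca2a triple, SA again gave 0 of 121 calls in limma, where 4.65% of all probe sets were called. At an unadjusted p under 0.05 there were 4 members, all lower after SA, where 11.5% of all probe sets were. The plastid median was -0.0835, with 57 of 73 members below 0, and the mitochondrial median -0.0184. Over all probe sets it was -0.0193. The plastid median was -0.00279 without SA replicate 3, which stood low, and -0.163 without SA replicate 2.

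ccmB, a membrane subunit of the mitochondrial machinery that matures cytochrome c, came closest to the threshold. It read 32.9, 28.6 and 30.5 in water and 26.6, 24.7 and 22.1 after SA. The 2 groups did not overlap, and the log2 fold change was -0.21 ± 0.06 with an adjusted p of 0.0669. That value was 0.0442 with arrays centred on their medians and 0.0298 without water replicate 2 of the double. In the plastid, ycf4, an assembly factor of photosystem I, had -0.275 ± 0.098 (adjusted p = 0.144), and rbcL, the large subunit of Rubisco, had -0.39 ± 0.17 (adjusted p = 0.216). rbcL read 1105, 895 and 1098 in water and 773, 939 and 661 after SA, so 1 array of each group reached into the other. The 25S rRNA control probe set of the same plants read 848 to 1115 in water and 1241 to 1803 after SA, and its part in these values was not tested.

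Whether the response to SA differed between the lines of the 12 arrays was tested directly as an interaction, the brca2a triple minus the double. It gave 0 calls in limma among the 121 members, against 1.94% of all probe sets, and 8 members at an unadjusted p under 0.05, all lower in the triple, where 7.09% of all probe sets were. The plastid median was -0.17, with 63 of 73 below 0, beside -0.00558 for all probe sets. Without SA replicate 3 of the brca2a triple the plastid median was -0.0653, and without SA replicate 2 of the double it was -0.124. rps2, a protein of the small plastid ribosomal subunit, had -0.43 ± 0.17 (adjusted p = 0.31). petA had -0.63 ± 0.25 (adjusted p = 0.321), and rbcL had -0.58 ± 0.24 (adjusted p = 0.343). Of the mitochondrial members ccmB had -0.23 ± 0.08 (adjusted p = 0.232).

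In water the brca2a triple and the double did not differ at the adjusted threshold for any of the 121 members, where 0.0747% of all probe sets were called. limma gave 7 members at an unadjusted p under 0.05, 3 higher and 4 lower in the triple, against 11.5% of all probe sets. Plastid members had a median of 0.0168 and mitochondrial members one of -0.0201, beside 0.0165 for all probe sets. The lowest plastid p belonged to rpl36, a protein of the large ribosomal subunit, with -0.27 ± 0.11 (adjusted p = 0.381), and to petB, the gene of cytochrome b6, with -0.18 ± 0.07 (adjusted p = 0.385).

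After SA the plastid members of the brca2a triple lay mostly below those of the double. limma called 0 of 121 at the adjusted threshold, where 4.26% of all probe sets were called. At an unadjusted p under 0.05 there were 27 members, or 22.3%, all lower in the triple, where 6.73% of all probe sets were. They comprised 18 plastid, 5 mitochondrial and 4 unannotated. All SA arrays of the triple lay below all those of the double for 18 of the 121 members and above them for 1. Of all 22746 probe sets, 2459 lay apart and lower and 3446 apart and higher. The plastid median was -0.142, with 65 of 73 below 0, and the mitochondrial median -0.089, with 11 of 13 below 0. Over all probe sets the median was 0.0118, with 43.7% below 0. The 18 plastid members at an unadjusted p under 0.05 became 5 without SA replicate 2 of the double, 5 (4 of them lower) without SA replicate 3 of the brca2a triple, and 32 without SA replicate 2 of the brca2a triple.

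By function, all 19 probe sets for plastid ribosomal proteins had a negative difference, with a median of -0.258. So did all 6 of the cytochrome b6f complex (-0.108) and all 6 of the plastid ATP synthase (-0.128). Of the photosystem II members 10 of 13 lay below 0 (median -0.141), of the NDH complex 9 of 11 (-0.0772), and of photosystem I 4 of 5 (-0.134). The 4 subunits of the plastid RNA polymerase had a median of -0.293, with rpoC1 and rpoC2 both at -0.41 and rpoB at 0.07. The 8 plastid members outside these groups and Rubisco had the lowest median of the larger plastid groups, -0.363, with 7 below 0. rbcL had -0.416. All 5 complex I subunits of the mitochondrion were negative (-0.202). Of the 4 members of cytochrome c maturation 3 lay below 0 (median -0.2). The probe set for rpl16 and rps3 had -0.404 and cox2 had -0.065. matR and mttB had a median of 0.0417, with 1 below 0. These counts share arrays and do not amount to independent cases.

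**Figure D2:**
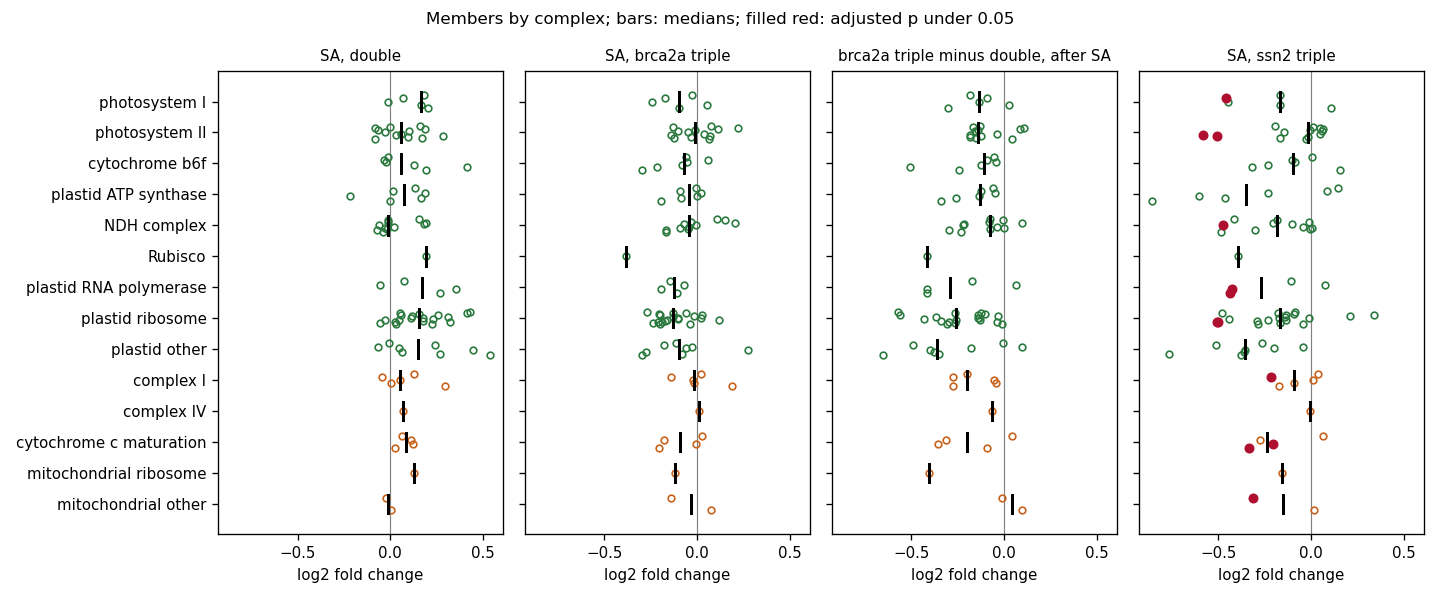
Each open circle is 1 member, in rows by the complex its protein belongs to, and the horizontal axis is the log2 fold change in 4 comparisons. Bars are medians and filled red circles have an adjusted p under 0.05, which 12 annotated members reached, all in the ssn2 triple and all lower after SA. In the comparison of the brca2a triple with the double after SA, all 19 ribosomal members lie left of 0.

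The members with the lowest p in this comparison were seen best in the single arrays. ycf4 read 68.3, 81.2 and 65 in the double after SA and 47.9, 52.7 and 53.1 in the brca2a triple after SA. The groups lay apart, with -0.38 ± 0.10 and an adjusted p of 0.0625. In water the same probe set read 58.3, 69.5 and 75.6 in the double and 59.2, 74.9 and 62.6 in the triple, which overlapped. Its adjusted p passed below the threshold in several alternatives, from 0.0229 with these 2 groups fitted alone to 0.0493 with the deposited log2 values. rps7, a protein of the small ribosomal subunit, read 2286, 3087 and 1853 in the double and 1518, 1896 and 1393 in the triple, with overlap of 1 array on each side. Its difference was -0.56 ± 0.18 with an adjusted p of 0.128. ycf1, whose product is placed with the protein import machinery of the inner envelope, read 1109, 1286 and 1024 in the double and 846, 980.4 and 620.1 in the triple. The groups lay apart, with -0.49 ± 0.16 and an adjusted p of 0.135.

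Of the mitochondrial members, nad4, a complex I subunit, read 52, 67.5 and 58.3 in the double after SA and 44, 48.1 and 45.4 in the brca2a triple. The groups lay apart, with -0.28 ± 0.08 and an adjusted p of 0.0803, which became 0.0387 without SA replicate 1 of the double. nad9 lay apart too, at 46.9, 49.1 and 41.4 in the triple against the values given above for the double, with -0.27 ± 0.10 and an adjusted p of 0.211. ccmFC, which takes part in attaching haem to cytochrome c, read 100.2, 92.8 and 116 in the double and 74.7, 86.4 and 70 in the triple. Its difference was -0.35 ± 0.13 with an adjusted p of 0.221. ccmFN1, of the same machinery, passed the threshold only with these 2 groups fitted alone, at 0.0433.

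**Figure D3:**
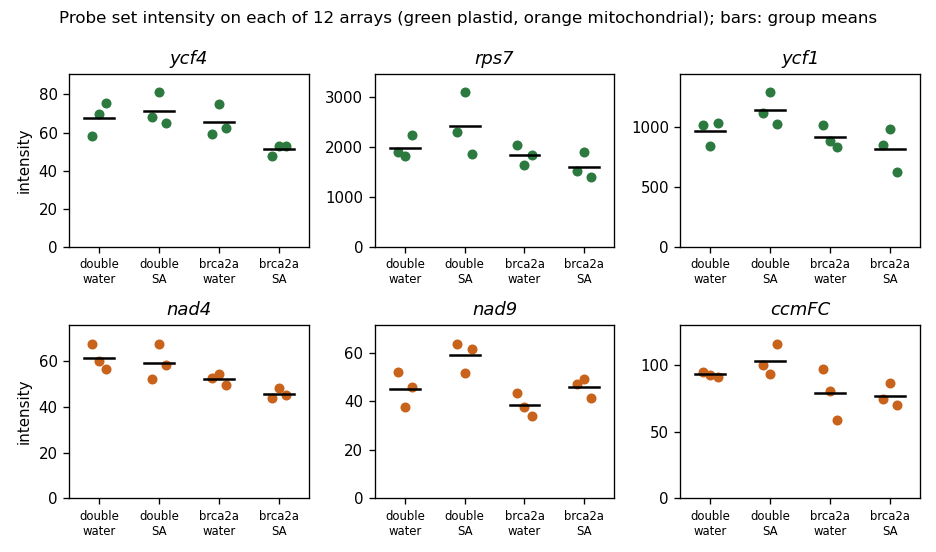
Intensity (linear axis from 0) of the 3 plastid (green) and 3 mitochondrial (orange) members with the lowest p in the comparison of the brca2a triple with the double after SA, on each of the 12 arrays, with bars at group means. For ycf4 the brca2a SA arrays lie between 47.9 and 53.1, below the double SA arrays at 65 to 81.2. None of the 6 passed the adjusted threshold.

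In the ssn2 triple, a small group of transcripts from both organelle genomes was lower after SA, and none was higher past the threshold. limma called 15 of 121 members lower (12.4%) and 0 higher, where 33.2% of all probe sets were called, 14.5% lower and 18.8% higher. The share of members called lower was thus near that of all probe sets, while calls in the other direction were absent. At an unadjusted p under 0.05 there were 24 members, against 41.1% of all probe sets. The 15 comprised 8 plastid, 4 mitochondrial and 3 unannotated members. The plastid median was -0.169, with 59 of 73 below 0, and the mitochondrial median -0.155, with 9 of 13 below 0, beside 0.00157 for all probe sets. Both SA arrays lay below all 3 water arrays for 38 members and above them for 3. Over all probe sets these shares were 25.2% and 27.9%, and for members 31.4% and 2.48%.

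Among the photosystem members, psbZ, a small subunit of photosystem II, changed most. It read 1939, 1975 and 1705 in water and 1374 and 1124 after SA. The groups did not overlap, and it fell by 0.58 ± 0.11 on the log2 scale with an adjusted p of 0.00736. psbC read 251, 303 and 323 in water and 208 and 193 after SA, also without overlap, with -0.51 ± 0.11 and an adjusted p of 0.0138. psaJ, a small subunit of photosystem I, read 577, 621 and 569 in water and 439 and 410.4 after SA. It fell by 0.46 ± 0.06 with an adjusted p of 0.00223. The remaining 11 photosystem II members and 4 photosystem I members did not pass. psbD, the neighbour of psbC that encodes a reaction centre protein, had -0.014 with an adjusted p of 0.903.

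ndhD was the only one of 11 NDH complex members to pass. It read 142, 144 and 176 in water and 106 on both SA arrays, with -0.47 ± 0.09 and an adjusted p of 0.0106. Of the cytochrome b6f members none passed, and petA lay at -0.32 (adjusted p = 0.431). rbcL read 701, 727 and 1005 in water and 580.0 and 633 after SA. Its groups lay apart, but the log2 fold change of -0.39 ± 0.16 had an adjusted p of 0.114.

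The genes of the plastid gene expression machinery supplied 4 of the 8 plastid calls. Of the 19 ribosomal members 2 fell, or 10.5%, beside 14.5% of all probe sets, and the other 17 did not pass. rps18, of the small ribosomal subunit, read 253, 295 and 276 in water and 191 and 186 after SA, and fell by 0.51 ± 0.07 with an adjusted p of 0.00267. rpl33, of the large ribosomal subunit, read 1048, 1087 and 1066 in water and 841 and 665 after SA, with -0.50 ± 0.10 and an adjusted p of 0.00986. rpoC1 and rpoC2 encode large subunits of the plastid RNA polymerase. rpoC1 read 110.0, 115 and 128 in water and 83.8 and 82.3 after SA, with -0.43 ± 0.07 and an adjusted p of 0.00441. rpoC2 read 60.5, 72.4 and 83.5 in water and 48.7 and 48.6 after SA, with -0.44 ± 0.11 and an adjusted p of 0.0244. The groups lay apart for all 4, which were chosen by the threshold on the same arrays. The other polymerase subunits, rpoA at -0.11 (adjusted p = 0.636) and rpoB at 0.08 (adjusted p = 0.555), did not pass, and rpoB was dim, at 8.76 to 13.5.

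Of the 13 mitochondrial members, 4 fell, or 30.8%, where 14.5% of all probe sets were called lower. ccmB read 27.2, 26.2 and 23.3 in water and 19 and 14.9 after SA, with -0.34 ± 0.08 and an adjusted p of 0.0167. mttB, which encodes a protein related to a bacterial translocase of the inner membrane, read 39.2, 41.5 and 34.8 in water and 28.3 and 27.3 after SA, with -0.31 ± 0.07 and an adjusted p of 0.0132. nad4 read 68.8, 65.9 and 64.4 in water and 55.1 and 54.8 after SA, with -0.22 ± 0.05 and an adjusted p of 0.0187. ccmFC read 66.9, 70.1 and 69.7 in water and 56.3 and 59 after SA, with -0.21 ± 0.05 and an adjusted p of 0.0227. None of the 4, chosen by the threshold on the same arrays, overlapped between groups. Of all probe sets, 25.2% lay apart and lower. At these intensities the added 16 makes the printed change smaller than that of the intensities themselves. The 3 unannotated members that fell had log2 fold changes between -0.22 and -0.18.

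**Figure D4:**
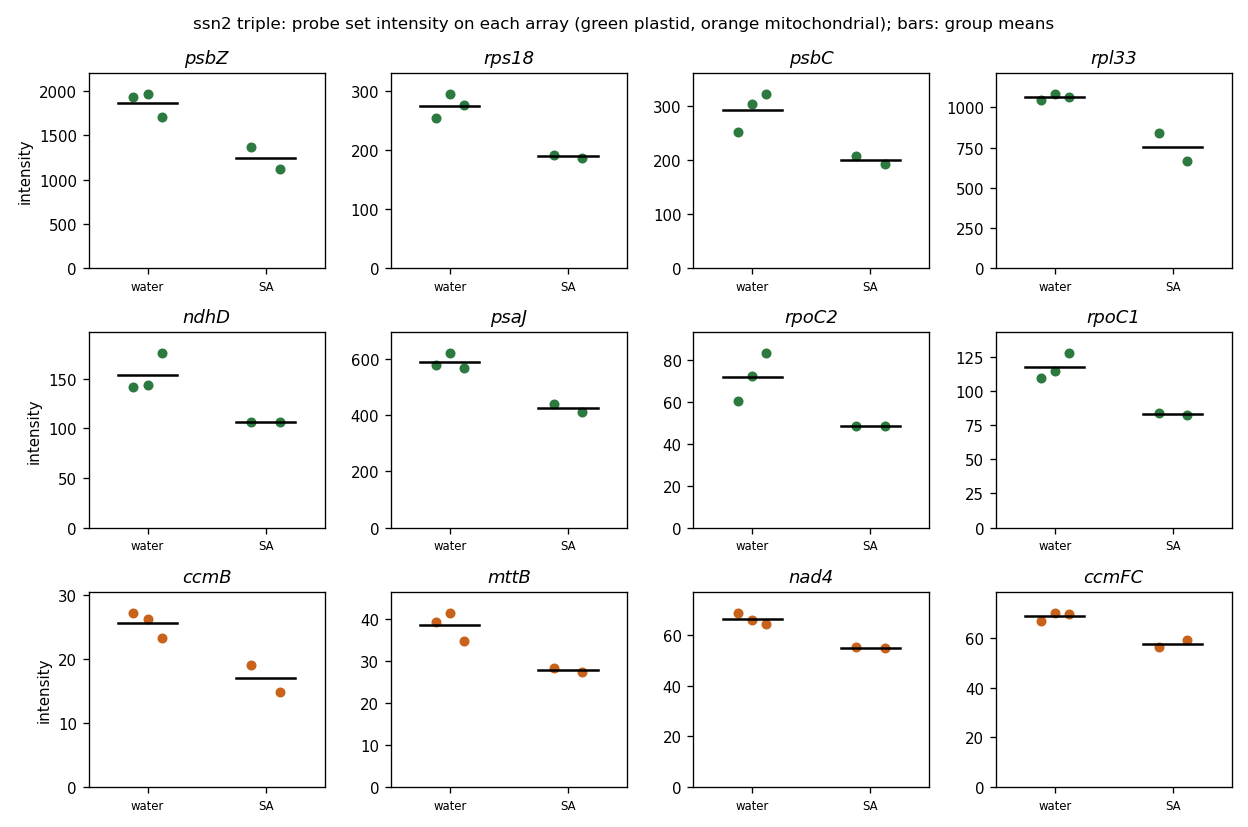
Intensity (linear axis from 0) on the 3 water and 2 SA arrays of the ssn2 triple for the 8 plastid (green) and 4 mitochondrial (orange) members that passed the threshold, with bars at group means. Both SA arrays lie below every water array in all 12 panels, for example at 1374 and 1124 against 1705 to 1975 for psbZ. The panels were chosen by the threshold on these same arrays, so the separation is not separate support.

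How far these calls rested on 1 array was measured by leaving out each in turn. With 1 water array left out, 8 to 11 of the 15 calls were kept, and other members gained one. Fewer were kept without 1 of the 2 SA arrays, which leaves a single array in that group. rpoC1, psbZ, psaJ, rpl33 and rps18 passed in all 5 of these fits. psbC and rpoC2 lost the call without either SA array or without water replicate 2, with adjusted p-values up to 0.105 and 0.126, and ndhD lost it without either SA array (up to 0.0728). All 4 mitochondrial and all 3 unannotated members lost it in at least 3 of the 5 fits. Other settings ended some calls too. rpoC2 had an adjusted p of 0.0609 with a pseudocount of 64, and nad4 had 0.0564 with same-numbered arrays as blocks. Water replicate 3 has no SA array of its number. Under the block it therefore adds nothing to the SA effect, and fold changes equal those without it. ccmFC lost the call under that block, with a pseudocount of 1 and with the deposited log2 values, at up to 0.0858. Each of the 3 unannotated members lost it in at least 1 such setting. Without water replicate 3, in which plastid members stood high, the plastid median was -0.0477 in place of -0.169, and without water replicate 1 it was -0.257.

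Some large differences that did not pass were smaller without water replicate 3. atpA, the alpha subunit of the ATP synthase, read 382, 405 and 763 in water and 272 and 256 after SA. The 763 belonged to replicate 3. The log2 fold change was -0.86 with an adjusted p of 0.066, and without replicate 3 it was -0.55 with 0.00314. accD, a subunit of the acetyl-CoA carboxylase of fatty acid synthesis, read 59.1, 63.1 and 141 in water and 44.5 and 38.5 after SA. Its log2 fold change was -0.76 with an adjusted p of 0.124, and -0.42 with 0.0115 without replicate 3. psbB read 32.1, 31.7 and 53.2 in water and 39.9 and 41.4 after SA. The SA arrays lay among the water arrays, with 0.07 and an adjusted p of 0.843, and without replicate 3 the log2 fold change was 0.24 with 0.0244. The largest positive value among plastid members was that of rpl23, a large subunit protein whose gene is repeated, which read 858, 969.5 and 733 in water and 1112 and 1048 after SA, with 0.34 and an adjusted p of 0.0688. It passed, at 0.0158, when the brighter probe sets were tested alone, where 57.9% of those were called. Without water replicate 2 it passed at 0.0295, where 26.8% of all probe sets were called.

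Most of the 8 plastid members that fell had neighbours among them on the plastid genome. Probe set numbers, by which the block was taken, also run along that genome in stretches. Of the 8, 7 were next to another of them in RefSeq gene order: rpoC2 beside rpoC1, psbC beside psbZ, and psaJ, rpl33 and rps18 in a row. ndhD stood alone. Over the 60 pairs of neighbouring genes that both had a probe set, the median absolute difference between log2 fold changes was 0.18, against 0.226 over the other 2020 pairs. In the comparison of the brca2a triple with the double after SA these values were 0.0861 and 0.145. They were 0.127 and 0.136 for SA in the double, 0.104 and 0.123 for SA in the brca2a triple and 0.179 and 0.181 for the interaction. For the lines of the 12 arrays in water they were 0.139 and 0.127, and neighbours were not closer there. Pairs share genes and arrays, and no test was made.

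**Figure D5:**
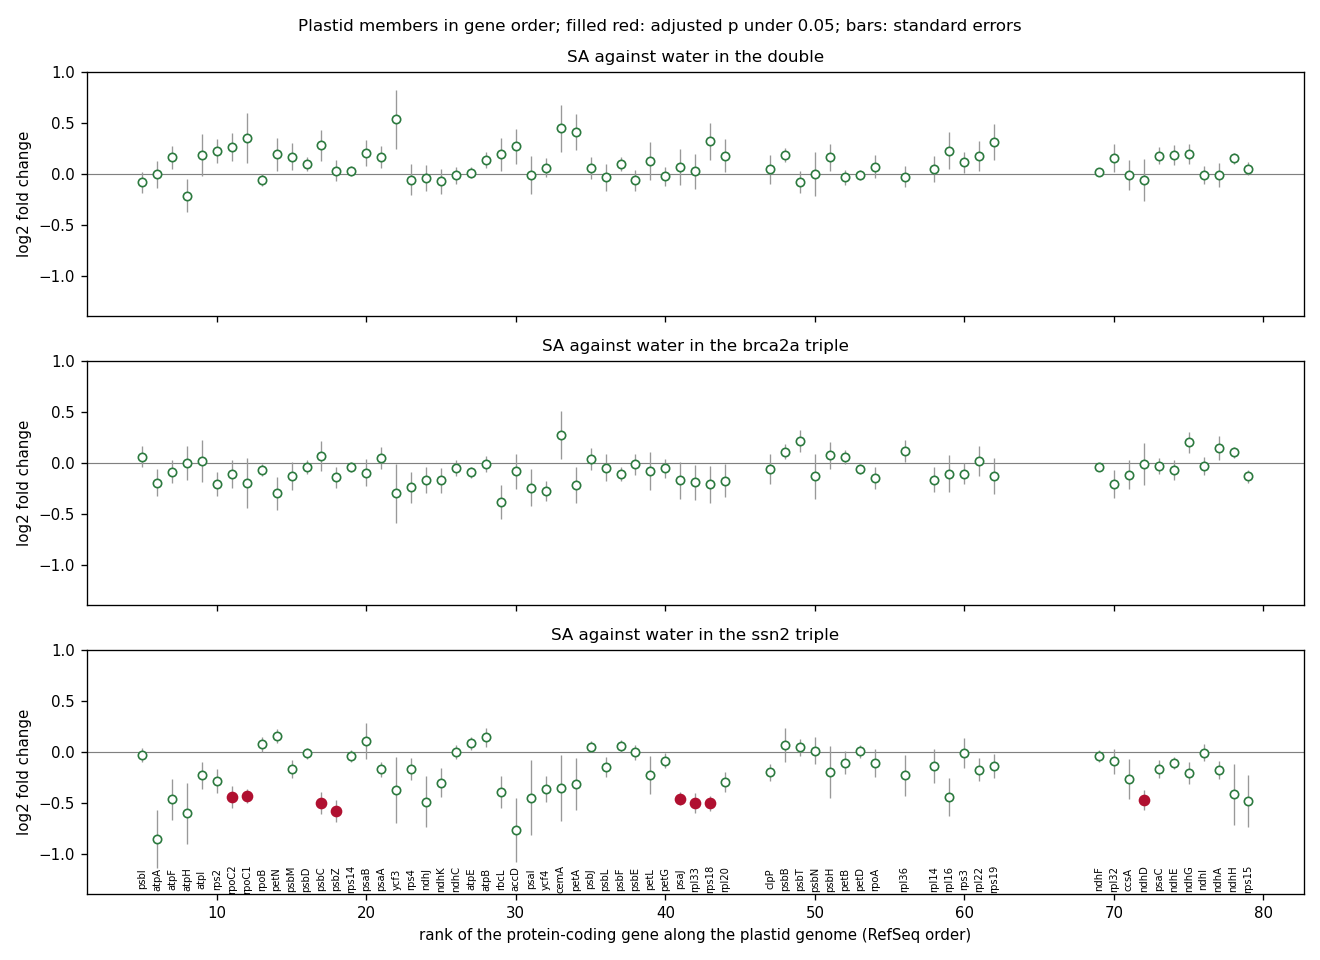
Log2 fold change of SA against water, with standard errors, for plastid members with a single gene copy and a place in the RefSeq order, plotted by gene rank in the double, the brca2a triple and the ssn2 triple. Filled red points have an adjusted p under 0.05. The 8 filled points lie in the ssn2 panel, 7 of them beside another, and the other panels have none.

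Organelle probe sets outside the numbered block gave values in the ssn2 triple from the same fit, where 14.5% of all probe sets were called lower. Of 4 plastid probe sets, rps16, a ribosomal protein, fell by 0.86 ± 0.09 (adjusted p = 0.000687) and matK, the plastid intron maturase, by 0.51 ± 0.11 (adjusted p = 0.0148). psbA, of the photosystem II reaction centre, had -0.14 (adjusted p = 0.467) and psbK had -0.04 (adjusted p = 0.853). Of 11 mitochondrial ones, 2 of the 7 for nad1 were lower, at -0.34 and -0.20. Of the 5 probe sets in the block that were left out as nuclear, 2 were lower, AT2G07708 at -0.32 and AT2G07751 at -0.33. A stretch of mitochondrial DNA is also present on chromosome 2 of Arabidopsis, and the arrays cannot tell such copies apart.

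Nuclear genes of the same complexes moved in both directions in the ssn2 triple, where 18.8% of all probe sets were called higher and 14.5% lower. They were named through the platform table, which does not list 8730 of the probe sets, so a listed gene with no match may still have one on the array. Of 11 matched photosystem and light-harvesting genes (of 58 listed), 2 rose and 3 fell, with a median of -0.0425. LHCB4.2, a minor antenna protein of photosystem II, fell by 1.63 ± 0.07 (adjusted p = 2.9e-05), PSAN by 0.50 ± 0.06 (adjusted p = 0.00145) and PSBY by 0.27 ± 0.05 (adjusted p = 0.01). NDHL, a nuclear subunit of the NDH complex, rose by 0.45 ± 0.09 (adjusted p = 0.0108), and LHCB4.1 by 0.26 ± 0.08 (adjusted p = 0.047). RPOTmp, a phage-type RNA polymerase targeted to organelles, was the only 1 of 27 listed genes of plastid transcription that the platform table matched to a probe set, and it fell by 0.48 ± 0.06 (adjusted p = 0.00229). Of 15 matched genes of mitochondrial respiration (of 34 listed), 2 rose and 3 fell. CYTC-2, a cytochrome c, fell by 1.76 ± 0.10 (adjusted p = 8.01e-05). The complex I subunit PSST rose by 0.34 ± 0.06 (adjusted p = 0.0073).

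In the 12 arrays, none of these photosystem and respiration genes passed limma's adjusted threshold in any of the 5 comparisons. Of all probe sets, 0.0747% to 7.47% passed, by comparison. At an unadjusted p under 0.05 there were 0 to 3 of the 11 photosystem genes and 1 to 3 of the 15 respiration genes, depending on the comparison. Of all 22746 probe sets, 2622 to 4846 had such a p. Lists this short cannot be told apart from all probe sets by these counts. UPOX, a mitochondrial stress marker, was 1 of 2 matched among 9 listed stress genes. It fell by 0.35 ± 0.07 with SA in the double (adjusted p = 0.0153). After SA it stood higher in the triple mutant with brca2a than in the double, by 0.39 ± 0.07 (adjusted p = 0.0113). The other matched stress gene had 0.235 and -0.387 in these 2 comparisons, in the opposite directions, and passed in neither. None of the 6 listed genes of chlorophyll synthesis and plastid signalling was matched to a probe set.

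Some control probe sets also differed between water and SA in the ssn2 triple. The 25S rRNA control read 562, 540.0 and 655 in water and 1323 and 1037 after SA. The log2 ratio of the 3-prime to the 5-prime ubiquitin control was 1.04, 0.98 and 0.87 in water and 1.36 and 1.2 after SA, and that of GAPDH was 0.21, 0.27 and 0.28 in water and 0.41 and 0.35 after SA. For both, the SA arrays lay above all water arrays. The actin ratio overlapped, at 3.13, 3.17 and 3.34 in water and 3.28 and 3.47 after SA. PYK10, a root marker, fell by 0.47 ± 0.05 (adjusted p = 0.000849), and EXPA7, the other root marker matched, had 0.06 (adjusted p = 0.664). The part of these in the organelle values was not tested.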

How the data were processed

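RNA was labelled and hybridised to ATH1 arrays by the authors, who deposited linear probe set intensities in 2 tables. The submitters' processing notes name PLIER, with no version or settings in the sources used here. Array medians lay between 57.4 and 62.1. In the series value table, the deposited values are on the log2 scale and differ from log2 intensity by 1 constant for each probe set (to within 2.32e-06). What set that constant is not known, and it served as an alternative.

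Members were taken by probe set number. Genes come from the platform table and RefSeq (TAIR10.1), and mitochondrial genes were matched by symbol or synonym. Control probe sets (64) were left out. Values were log2(intensity + 16), with no filter. limma 3.58.1 (R 4.3.3) fitted group means with lmFit and eBayes, 1 fit per table, two-sided, threshold 0.05. The procedure was tried on simulated data. Of simulated log2 changes of 0.5, 75% were called for SA in the double and 52% in the ssn2 triple. Of changes of 1.0, 94% were called in both. Smaller changes were not simulated, so the absence of a call does not show the absence of a change. Errors are standard errors of the fit. The number of arrays limits precision. Arrays with the same replicate number were not paired in the main fit. Deviations from group means had r of -0.327 to 0.157 over 20 same-numbered pairs. Differently numbered pairs had r of -0.173 to 0.305. With so few arrays in a group these r depend on each other, so they cannot exclude pairing. No test was made across the 2 tables, which appear to have been normalized separately. Alternatives were the pseudocount, a brightness filter, centring, quantile normalization, a replicate block, the deposited log2 values, groups fitted alone and leaving out each array. Text names, per comparison and genome, up to 8 annotated members past the threshold with the largest change, otherwise the 3 with the lowest p; it also names the 5 most variable members. Other members named were chosen after their values were seen. Members, gene lists and tests were chosen with earlier results of these data known.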

Additional observations from a re-analysis of the deposited data

Results flagged for a closer look

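For 5 members all SA values exceeded all water values in the double, while in the ssn2 triple all SA values fell short of all water values. This was 4.13% of members, against 1.82% of all probe sets. Taken singly, 14 members lay apart and higher in the double and 38 lay apart and lower in the ssn2 triple. The difference between the 2 lines was not tested, because their tables appear to have been normalized separately, and line and experiment cannot be told apart. psbC had a log2 fold change of 0.283 in the double and -0.505 in the ssn2 triple. petA, the gene of cytochrome f, had 0.417 and -0.318. psaC, the iron-sulfur subunit of photosystem I, had 0.181 and -0.167. Of 2 unannotated members, 1 had 0.16 and -0.219, and the other 0.086 and -0.112. Of these 10 values only the -0.505 of psbC and the -0.219 passed the adjusted threshold of limma.

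The 25S rRNA control probe set, which is outside the comparisons, was brighter after SA than on every water array of the same line in both triples. Its mean intensity after SA was 1179.6 in the ssn2 triple, against 585 in water, and 1449 in the brca2a triple, against 1026 in water. In the double it was 1221 after SA and 1614 in water, with overlap.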

How the results depend on the processing

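No result changed direction past its threshold under any alternative. For SA in the brca2a triple, 1 member passed with arrays median centred and 1 with the replicate block. Of all probe sets, 5.24% and 4.47% passed there. For the lines of the 12 arrays compared after SA, 1 passed with a pseudocount of 1, 1 with the replicate block, 1 with the series value table and 2 with the groups alone. All other counts of the 12 arrays with every array kept were 0. Under the replicate block, in which same-numbered arrays are paired, the ssn2 triple had 14 calls, 10 of them among the 15. There 30.8% of all probe sets were called. Its water replicate 3 has no SA array of that number and adds nothing to the SA effect there. The settings other than the block that used every array for the SA effect gave 13 to 21 calls in the ssn2 triple. Without the brightness filter, 30.3% to 33.9% of all probe sets were called in them. With that filter 57.9% of the probe sets left were called, and of 56 members 19 were lower and 1 higher. All member calls in these settings were lower except that of rpl23 among the brighter probe sets. Of the 15, 12 were members with an annotated organelle gene. In water the block left 3 called probe sets over the whole array and the groups alone left 2, against 17. For SA in the brca2a triple the groups alone called 2599 against 1057, and after SA 2040 against 970. For SA in the double they called 939 against 1700.

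Mitochondrial medians moved in some settings by more than 1 standard deviation of the array medians within groups (0.0163 to 0.0503, by comparison), which is a spread between arrays and not the error of the median. The brighter ones here are only 2 of the 13 members on the 12 arrays and 3 on the 5. For SA in the double the median was 0.115 with a pseudocount of 1, 0.118 for the brighter probe sets and 0.119 in the series value table. For SA in the brca2a triple it was -0.0921 for the brighter ones. The interaction gave -0.0568 with a pseudocount of 64 and -0.21 for the brighter ones. In water the brca2a triple against the double gave -0.123 for the brighter ones, -0.0388 with median centring and -0.0407 with quantile normalization. After SA it gave -0.14 with a pseudocount of 1, -0.333 for the brighter ones and -0.146 in the value table. For the ssn2 triple it was -0.254 with a pseudocount of 1, -0.0659 with 64, -0.215 for the brighter ones, -0.193 with centring and -0.26 in the value table. For the brighter ones the median is over fewer members, and for the other settings the cause was not tested. The brightness filter left 57 of all members on the 12 arrays and 56 on the 5.

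Leaving out each array in turn gave 0 to 1 calls for SA in the double, SA in the brca2a triple and the lines after SA, 0 to 0 for the interaction and for water, and 7 to 15 in the ssn2 triple. Plastid medians ranged from 0.0245 to 0.144 for SA in the double, -0.163 to -0.00279 in the brca2a triple, -0.269 to -0.0653 for the interaction, -0.0112 to 0.0385 in water, -0.262 to -0.0814 after SA and -0.257 to -0.0477 in the ssn2 triple. Mitochondrial medians ranged from 0.0166 to 0.0874, -0.0728 to 0.00811, -0.127 to -0.0762, -0.0401 to -0.0137, -0.126 to -0.0777 and -0.165 to -0.0794 in the same order.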
